A study of Homo sapiens with 4 samples.

Results

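IFI6, IFI27, IFITM1, IFITM2, IFITM3 and BST2 are interferon-induced genes that encode small membrane proteins, and they were followed here across cultured human lung adenocarcinoma cells in which PSAT1 had been manipulated. They were taken as the probe sets whose only annotated gene symbol was one of these 6 genes. Each gene had 1 such probe set, so that 6 of the 54675 probe sets and 6 of the 19740 named genes were followed. The genes were put together as an interferon-induced group with the signals of these arrays already known, so their values describe these 4 arrays and support no test.

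The study compared CL1-0 and CL1-5, human lung adenocarcinoma lines of one origin, of which CL1-5 is the more invasive. The 4 groups were CL1-0 with a PSAT1 expression vector, CL1-0 with its vector control, CL1-5 with a short hairpin RNA against PSAT1 and CL1-5 with a non-silencing hairpin. PSAT1, phosphoserine aminotransferase, acts in serine synthesis. Each group was measured on 1 array, so there was no replicate. All 4, controls included, were stably transduced with a construct and kept in puromycin for 2 weeks. The sources used here do not say if the transduced cells were clones or pools. The labels also call the cells alveolar type II cells. Of 8 type II markers with a named probe set, 6 were above the floor defined below on each array, at signals between 62.3 and 268, while SFTPD and SLC34A2 were below it on all 4. Of 5 epithelial markers, EPCAM, CDH1 and KRT19 were below the floor on all 4 arrays. The keratins KRT8 and KRT18 were above it on all 4, and on the CL1-5 non-silencing array they read 1271 and 5308, against 77.8 and 757 on the CL1-0 vector array. Of 7 leukocyte and endothelial markers with a named probe set, PTPRC, CD3E, CD14 and CDH5 were below the floor on all 4 arrays. PECAM1 (54.3 to 149.98) and IL3RA (68.2 to 84.5) were above it on all 4, and LILRA4 on the CL1-5 arrays. The other 4 PECAM1 probe sets were under the floor in CL1-0, and one of them read 54.1 with the hairpin and 132 with the non-silencing construct in CL1-5. Another read 91.1 with the hairpin and 202 with the non-silencing construct, above the range given for PECAM1. The part of such markers in the results was not tested.

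Type I interferon is sensed by a receptor whose kinases activate transcription factors, and these bind a promoter sequence called the interferon-stimulated response element (ISRE). The 6 proteins act at membranes. IFI6 and IFI27 belong to one family of small hydrophobic proteins of the endoplasmic reticulum, the mitochondria and the nuclear envelope, where IFI6 is known for limiting cell death and the replication of flaviviruses. IFITM1, IFITM2 and IFITM3 form another family that blocks the fusion of virus and cell membranes, IFITM1 mainly at the cell surface and the others in endosomes. BST2, also called tetherin, holds budding virus particles on the cell surface.

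The promoters are shown because their windows can be read for the sequence that interferon-activated factors are known to bind. The RefSeq promoter table (GRCh38.p14) gave a window of 300 bases, 250 before the annotated start and 50 after it, for 5 of the 6 genes, without IFITM2. Each window below is written 5′ to 3′ on the strand of its gene, and capitals mark matches, on either strand, to the ISRE core, taken as GAAA, any 2 bases and GAAA.
IFI6 (chr1:27672143-27672442, minus strand): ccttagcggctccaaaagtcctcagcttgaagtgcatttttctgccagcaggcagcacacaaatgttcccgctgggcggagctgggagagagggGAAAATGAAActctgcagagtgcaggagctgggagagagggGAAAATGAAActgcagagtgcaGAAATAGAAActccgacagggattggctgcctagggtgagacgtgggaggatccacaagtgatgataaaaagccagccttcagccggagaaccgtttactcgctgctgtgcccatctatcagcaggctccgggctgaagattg
IFI27 (chr14:94110486-94110785, plus strand): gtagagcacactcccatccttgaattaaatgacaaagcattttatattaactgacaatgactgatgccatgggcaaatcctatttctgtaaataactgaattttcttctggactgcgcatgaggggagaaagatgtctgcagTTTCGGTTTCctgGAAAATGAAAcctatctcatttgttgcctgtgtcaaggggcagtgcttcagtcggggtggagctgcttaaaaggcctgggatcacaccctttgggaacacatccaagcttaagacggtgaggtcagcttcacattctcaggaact
IFITM1 (chr11:313790-314089, plus strand): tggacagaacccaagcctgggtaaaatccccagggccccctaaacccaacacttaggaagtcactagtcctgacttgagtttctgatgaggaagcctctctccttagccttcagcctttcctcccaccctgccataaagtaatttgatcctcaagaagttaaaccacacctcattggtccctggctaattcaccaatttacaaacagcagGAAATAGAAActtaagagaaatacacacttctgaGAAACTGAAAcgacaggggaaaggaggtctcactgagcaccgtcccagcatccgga
IFITM3 (chr11:320811-321110, minus strand): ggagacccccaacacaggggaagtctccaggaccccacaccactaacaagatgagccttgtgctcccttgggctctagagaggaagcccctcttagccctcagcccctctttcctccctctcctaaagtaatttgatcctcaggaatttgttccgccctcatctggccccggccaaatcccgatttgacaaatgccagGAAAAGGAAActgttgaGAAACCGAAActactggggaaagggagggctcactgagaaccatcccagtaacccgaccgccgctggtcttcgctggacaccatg
BST2 (chr19:17405581-17405880, minus strand): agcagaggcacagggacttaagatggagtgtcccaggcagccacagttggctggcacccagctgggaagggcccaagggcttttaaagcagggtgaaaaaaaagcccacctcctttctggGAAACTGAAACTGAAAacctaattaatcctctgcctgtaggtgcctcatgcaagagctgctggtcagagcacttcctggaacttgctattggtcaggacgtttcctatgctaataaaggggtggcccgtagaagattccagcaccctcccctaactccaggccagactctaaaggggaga

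Each of the 5 windows held at least 2 matches to the core. Over all 35116 windows of the table, 3.57% held at least 1 match and 0.259% held 2 or more. Of 27 other interferon-induced genes with a window, from the list read below, 17 had at least 1 match and 9 had 2 or more. IFI6 had 3, with first bases at positions -156, -115 and -93 from the start, and the first 2 had the same letters. IFI27 had a match on the opposite strand at -108 and another on its own strand at -95. The table lists a second IFI27 start, whose overlapping window holds the same pair. The IFITM1 matches lay nearest to the start, at -40 and -6, and those of IFITM3 at -52 and -35. In BST2 the pair at -130 and -124 overlapped. The pattern TTC, any 3 bases and GAA, which reads alike on both strands and is known as the gamma-activated site (GAS), occurred in IFI27, IFITM1 and BST2, against 7.66% of all windows. It occurred in 6 of the 27 other interferon-induced genes. The BST2 window held 2 of them. Its copies at -101 in IFI27, -12 in IFITM1 and -136 in BST2 overlapped an ISRE core match by a few bases. These matches describe letters in the windows and not binding.

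**Figure D1:**
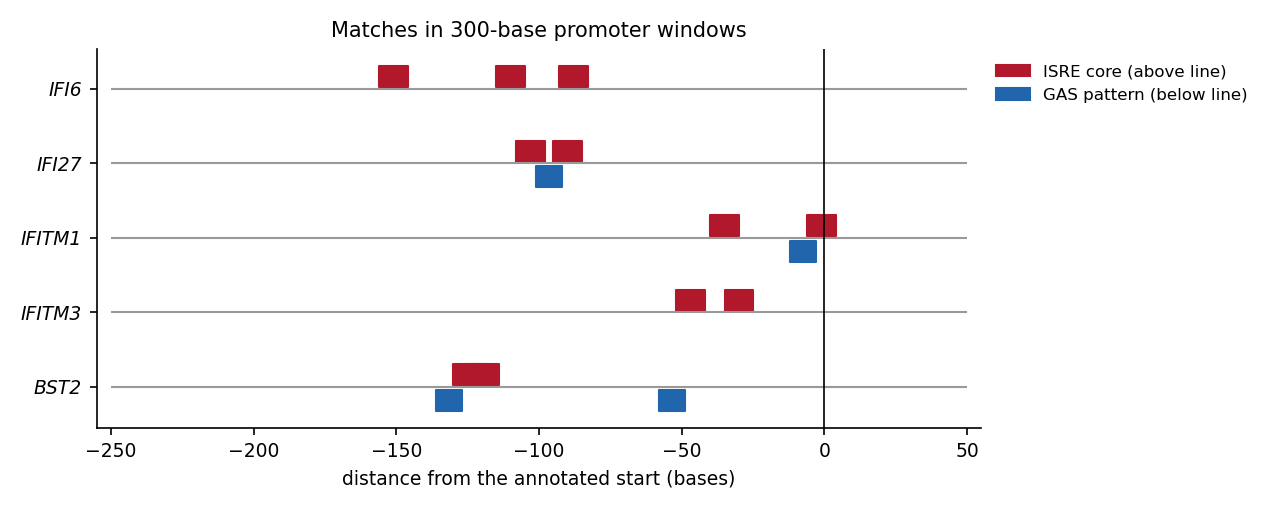
Matches to the ISRE core (red, above the line) and to the GAS pattern (blue, below the line) in the 300-base promoter windows of 5 genes, against distance from the annotated start in bases. IFITM1 and IFITM3 have their matches within 52 bases of the start, and those of IFI6, IFI27 and BST2 lie farther upstream.

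Signals are the deposited linear probe set intensities. A signal under the floor of 49.0, the pooled median of all probe sets that are not controls, was set to it before ratios were taken. A pair of arrays with both signals at the floor was not measured, and with 1 signal at the floor the fold is a lower bound, written "at least". The words "rose", "fell", "higher" and "lower" are kept for genes whose signals on a pair of arrays were at least 2-fold apart, which is a rule of size with no p-value. These are bulk RNA signals, in which fewer cells carrying an RNA and less of it per cell cannot be told apart. As a check of the labels, PSAT1 itself read 5494 on the PSAT1 array and 4214 on the vector array of CL1-0, and 143 on the hairpin array and 1760 on the non-silencing array of CL1-5. It was thus 1.30-fold above its control in CL1-0, short of 2-fold, and 12.3-fold lower in CL1-5. A dimmer PSAT1 probe set differed by 1.07-fold in CL1-0 and was 3.58-fold lower in CL1-5 (107 with the hairpin, 384 with the non-silencing construct). Where the probes lie relative to the introduced sequence is not known here. The median signal over probe sets ran from 45.4 to 53.2, the 3′ to 5′ ratio of GAPDH control probe sets from 1.07 to 1.10 and that of ACTB from 1.18 to 1.38. A control probe set of 28S ribosomal RNA read 2410 with PSAT1 and 3294 with vector in CL1-0, and 2355 with hairpin and 3189.8 with non-silencing construct in CL1-5. It was thus below its control in both manipulated cultures, by less than 2-fold. An 18S control probe set read 1342 with PSAT1 and 1609 with vector in CL1-0, and 4334 with hairpin and 5403 with non-silencing construct in CL1-5. The 18S signal was thus more than 2-fold higher on both CL1-5 arrays than on either CL1-0 array, and the part of these controls in the results was not tested.

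In CL1-5 cells, the hairpin against PSAT1 was accompanied by higher signal of IFI6, IFI27, IFITM1 and BST2, while IFITM2 and IFITM3 differed by less than 2-fold. IFI27 had the largest ratio of all 12821 measured genes. Of the 6 genes, 4 were higher and 0 lower, and over all measured genes 0.398% were higher and 0.421% lower. The same 4 of 6 were counted at 1.5-fold, at which 1.67% of all genes were higher. The median log2 ratio of the 6 was 1.49, against 0.02 over all genes. Since these ratios were known when the genes were grouped, the counts are a description.

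IFI6 had a signal of 2805 with the hairpin and 1043 with the non-silencing construct, a rise of 2.69-fold (log2 ratio 1.43). Among all measured genes this was the 16th largest ratio. Both arrays were far above the floor.

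IFI27 read 1431 with the hairpin and 94.4 with the non-silencing construct, a 15.2-fold rise (log2 ratio 3.92). The IFI27 control signal was less than 2 times the floor. Its log2 ratio under the other scalings and floors ran from 3.82 to 4.09.

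IFITM1 read 312 with the hairpin and 106 with the non-silencing construct, a 2.94-fold rise (log2 ratio 1.56) and the 10th largest ratio. IFITM2 had a signal of 3330.2 with the hairpin and 2455 with the non-silencing construct, a log2 ratio of 0.44 (1.36-fold). IFITM3 had 6369.5 with the hairpin and 4619 with the non-silencing construct, a log2 ratio of 0.46 (1.38-fold). IFITM1 thus passed 2-fold and the other 2 IFITM genes did not, though both of their ratios were positive. The IFITM2 and IFITM3 ratios were the 440th and 379th largest of 12821. Both lay inside the middle 95% of all genes, which ended at 0.49.

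The IFITM genes resemble each other in sequence, and their probe sets carry suffixes that Affymetrix gives to sets matching several transcripts (_s_at for IFITM1, _x_at for IFITM2 and IFITM3). The signals of IFITM2 and IFITM3 may therefore not be independent, although the counts and medians here take them as 2 genes. A further probe set, annotated to both IFITM1 and IFITM2 and so outside the group, had a signal of 223 in hairpin cells and 98.9 in non-silencing cells (2.25-fold). In CL1-0 its signals were 41.6 in PSAT1 cells and 77.6 in vector cells, a log2 ratio bounded at -0.66.

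BST2 read 149 with the hairpin and 38.7, under the floor, with the non-silencing construct, at least 3.04-fold higher. Measured only through the hairpin array, BST2 could only have a positive ratio, and its bound moves with the floor. With the floor at the pooled 65th percentile the log2 ratio was 0.56, under 2-fold.

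**Figure D2:**
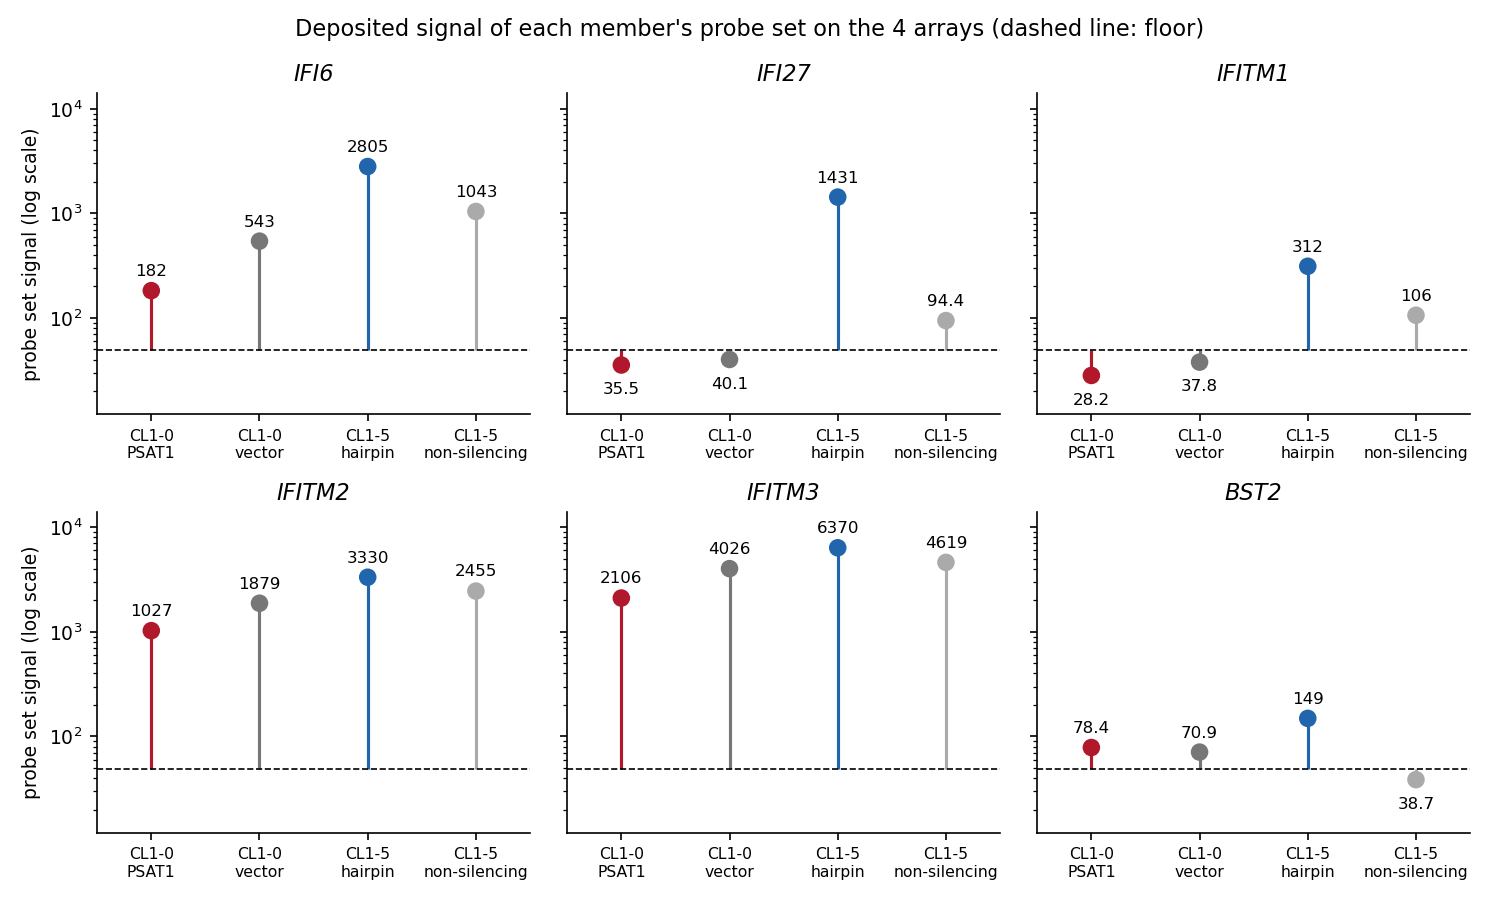
Deposited signal of each gene's probe set (log axis) on the arrays of PSAT1 and vector in CL1-0 and of PSAT1 hairpin and non-silencing hairpin in CL1-5. Each point is 1 array, stems run from the floor of 49.0 (dashed line), and the CL1-5 hairpin array is highest for all 6 genes.

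In CL1-0 cells, IFI6 fell with the PSAT1 vector and IFITM2 and IFITM3 had negative ratios under 2-fold. IFI27 and IFITM1 were under the floor on both arrays, so that 4 of the 6 genes were measured. Of these, 1 was lower and 0 were higher, and over all 13187 measured genes 1.01% were lower and 2.56% higher. At 1.5-fold, 3 of the 4 were lower, against 4.06% of all genes. The median log2 ratio of the 4 was -0.90, against -0.01 over all genes.

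IFI6 had a signal of 182 with PSAT1 and 543 with vector, a fall of 2.97-fold (log2 ratio -1.57), the 55th lowest ratio. IFITM2 read 1027 with PSAT1 and 1879 with vector (log2 ratio -0.87, 1.83-fold). IFITM3 read 2106 with PSAT1 and 4026 with vector (log2 ratio -0.93, 1.91-fold). The IFITM2 and IFITM3 ratios were the 195th and 155th lowest of 13187. Both lay outside the middle 95% of all genes, which began at -0.70. The IFITM3 ratio was close to 2-fold and passed it, at -1.01, when each array was centred on its median.

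BST2 went the other way by a small amount, with 78.4 on the PSAT1 array and 70.9 on the vector array (log2 ratio 0.15). IFI27 read 35.5 with PSAT1 and 40.1 with vector, and IFITM1 read 28.2 with PSAT1 and 37.8 with vector. All 4 of these signals were under the floor, where they have no order.

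**Figure D3:**
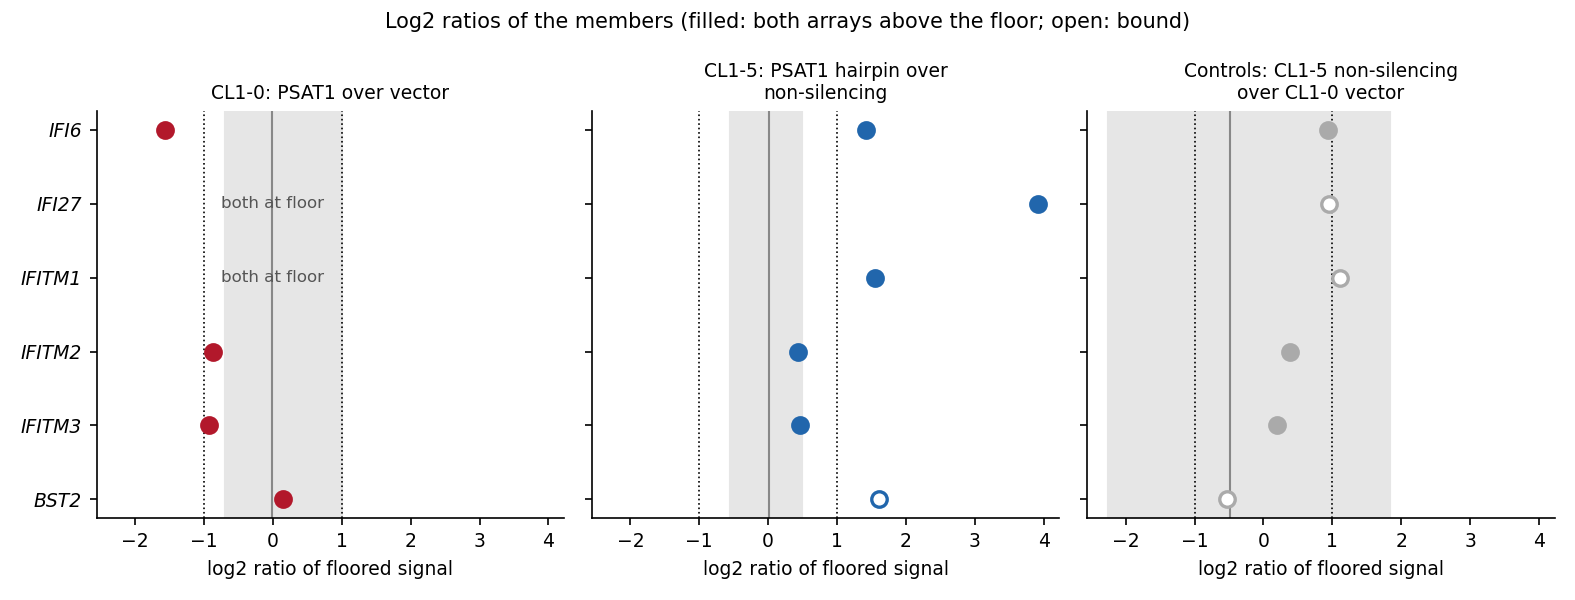
Log2 ratio of floored signal of the 6 genes in the 3 comparisons, with filled points where both arrays were above the floor and open points for bounds. The grey band holds the middle 95% of all measured genes, the grey line is their median and dotted lines mark 2-fold. IFI27 in CL1-5 stands farthest out, at 3.92.

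The control arrays of the lines were also set against each other. This comparison shares its arrays with the 2 comparisons above, and the lines carried different control constructs, so line and construct cannot be told apart. As deposited, the median log2 ratio of all genes, CL1-5 non-silencing over CL1-0 vector, was -0.49, and 5.25% of 13720 genes were higher and 24.8% lower. Quantile normalization moved that median to 0.00 and the counts to 1306 higher and 1223 lower, in place of 720 and 3402. At 1.5-fold, 8.52% of all genes and 3 of the 6 were higher. IFITM1 was the 1 gene of the 6 that was higher in CL1-5 (106 with the non-silencing construct, 37.8 with vector in CL1-0, at least 2.17-fold), and 0 were lower. IFI27 and IFITM1 were under the floor on the CL1-0 array, so their ratios could only be positive. Under quantile normalization, and with each array centred on its median, IFI6, IFI27, IFITM1 and IFITM2 all passed 2-fold. With that centring, 1433 of 13886 genes were higher.

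IFI6 read 1043 in CL1-5 with the non-silencing construct and 543 in CL1-0 with vector, a log2 ratio of 0.94 that lay 1.43 above the median of all genes. IFI27 read 94.4 in CL1-5 and 40.1 in CL1-0, at least 1.93-fold. IFITM2 and IFITM3 had log2 ratios of 0.39 and 0.20, which lay 0.87 and 0.68 above that median. BST2 read 38.7 in CL1-5 and 70.9 in CL1-0, and its log2 ratio was bounded at -0.53, or -0.05 relative to the median of all genes.

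Over the 4 arrays, IFI6, IFITM2 and IFITM3 were above the floor throughout and had the same order. The CL1-5 hairpin array was highest, followed by CL1-5 non-silencing, CL1-0 vector and CL1-0 with PSAT1. PSAT1 signal stood in the reverse of this order. That order of arrays was found in 3.65% of the 11273 genes above the floor on all arrays. It was not particular to these 3 genes. KRT8 and KRT18 had it too, as did 5 of 14 other interferon-induced genes above the floor throughout, from the list read below. Of the 6 type II markers above the floor throughout, 0 had it. IFI6 spanned 15.4-fold between its highest and lowest arrays, IFITM2 3.24-fold and IFITM3 3.02-fold. BST2 had another order, with CL1-5 non-silencing lowest. With 1 array per group, no neighbouring pair in these orders can be set against a replicate spread.

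A list of 33 other interferon-induced genes was read beside the group. In CL1-5 with the hairpin, 12 of its 29 measured genes rose and 0 fell, all 29 ratios were positive and the median was 0.87. Over all genes 0.398% rose and 0.421% fell. Of the 29, 28 were above the floor with the non-silencing construct, and the other could only have a positive ratio. The largest were the antiviral GTPase MX1 (1452 with the hairpin, 325 with the non-silencing construct, 4.47-fold), OAS2, an enzyme of the system that degrades viral RNA (191 with the hairpin, 50.5 with the non-silencing construct, 3.78-fold), RSAD2, the antiviral enzyme viperin (3.55-fold), and its neighbour CMPK2, a nucleotide kinase (3.52-fold). The log2 ratio of IFI27, 3.92, was above that of MX1, 2.16.

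In CL1-0 with PSAT1, 14 of 22 measured genes of this list fell and 0 rose, with a median log2 ratio of -1.79. Over all genes 1.01% fell and 2.56% rose. All 22 were above the floor with vector, and 14 with PSAT1. The genes under the floor with PSAT1 were measured only through their vector signal, so their ratios could only be negative. The count and the median rest in part on them. By floored signal the largest falls were in IFIT1 (signals of 24.1 in PSAT1 cells and 8422 in vector cells, at least 172-fold), IFIT2 (14.2 in PSAT1 cells and 2276 in vector cells, at least 46.4-fold), both RNA-binding antiviral proteins, RSAD2 (at least 33.4-fold) and OASL (28.6-fold). Since most of these folds are bounds, genes with smaller bounds, such as IFIT3 (at least 27.1-fold) and IFI44 (at least 15.1-fold), may have fallen by more than OASL. Another OASL probe set, not the one read for the gene, had 33.9 with PSAT1 and 1811 with vector, at least 37.0-fold. The measured fall of IFI6, 2.97-fold, was below each of these values. Between the control arrays the list went both ways, with 6 of 28 higher in CL1-5 and 11 lower. Over all genes 5.25% were higher and 24.8% lower. All 28 were above the floor in CL1-5 and 22 in CL1-0, so the rest could only have positive ratios. Quantile normalization gave 8 higher and 10 lower, and median centring 8 and 9. Over all genes the counts were 1306 and 1223 of 13697 with quantile normalization and 1433 and 1193 of 13886 with centring. OAS3 was 9.78-fold higher in CL1-5, whereas RSAD2 was 24.7-fold, IFI44 10.7-fold and IFIT1 8.69-fold lower, and each of these kept its direction past 2-fold under both scalings.

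Genes that carry the interferon signal were read next. Of the 9 listed, those without a named probe set were not read, and no STAT transcription factor was among the genes read. Of 7 with a named probe set (IFNAR1 and IFNAR2 of the receptor, the kinases JAK1 and TYK2, and the transcription factors IRF1, IRF7 and IRF9), none reached 2-fold with the hairpin or with PSAT1, where 0.819% and 3.56% of all genes did in either direction, so a count of 0 among so few genes shows nothing particular to them. Their medians were 0.05 with the hairpin in CL1-5 and 0.10 with PSAT1 in CL1-0. IRF9, a transcription factor that binds the ISRE, read 1209 with the hairpin and 839 with the non-silencing construct (log2 ratio 0.53), just outside the middle 95% of all genes, which ended at 0.49. In CL1-0 it read 238 with PSAT1 and 272 with vector (-0.19). IRF1 had the largest ratio of the 7 in CL1-0, -0.68, and the middle 95% of all genes began at -0.70. A dimmer IRF1 probe set had -0.76, beyond that limit (75.7 with PSAT1, 127.8 with vector). Between the control arrays, IRF9 was 3.08-fold and IRF7 2.68-fold higher in CL1-5, also under both other scalings. IFNAR1 was 2.47-fold lower as deposited but not under the other scalings, with which JAK1 passed 2-fold upward.

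The 3 paralogs with a named probe set did not reach 2-fold in any of the 3 comparisons. IFI27L1 and IFI27L2, of the IFI6 and IFI27 family, had log2 ratios of -0.11 and 0.13 with the hairpin in CL1-5, and of 0.35 and -0.14 with PSAT1 in CL1-0. IFITM10 had 0.10 with the hairpin and -0.42 with PSAT1. The promoter windows of IFI27L1 and IFI27L2 held no ISRE core match.

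Proteins that are known to act with the 6 were read as well. ZMPSTE24 is a membrane protease that works with the IFITM proteins, NEDD4 a ubiquitin ligase and ZDHHC20 a palmitoyltransferase of IFITM3, VAPA and CD81 membrane proteins that IFITM proteins bind, HSPA5 the chaperone that holds IFI6, SKP2 and NR4A1 partners of IFI27, and ARHGAP44 a partner of BST2. With the hairpin, 0 of 8 measured genes reached 2-fold, against 0.819% of all genes, and their log2 ratios lay between -0.17 and 0.17. With PSAT1 in CL1-0, 0 of 9 reached 2-fold, against 3.56% of all genes, and HSPA5 had the lowest ratio (7350.3 with PSAT1, 10682 with vector, -0.54). Between the control arrays 6 of 9 were lower in CL1-5, against 24.8% of all genes, but 2 under each of the other scalings. Of all genes, 1223 of 13697 were lower with quantile normalization and 1193 of 13886 with median centring.

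**Figure D4:**
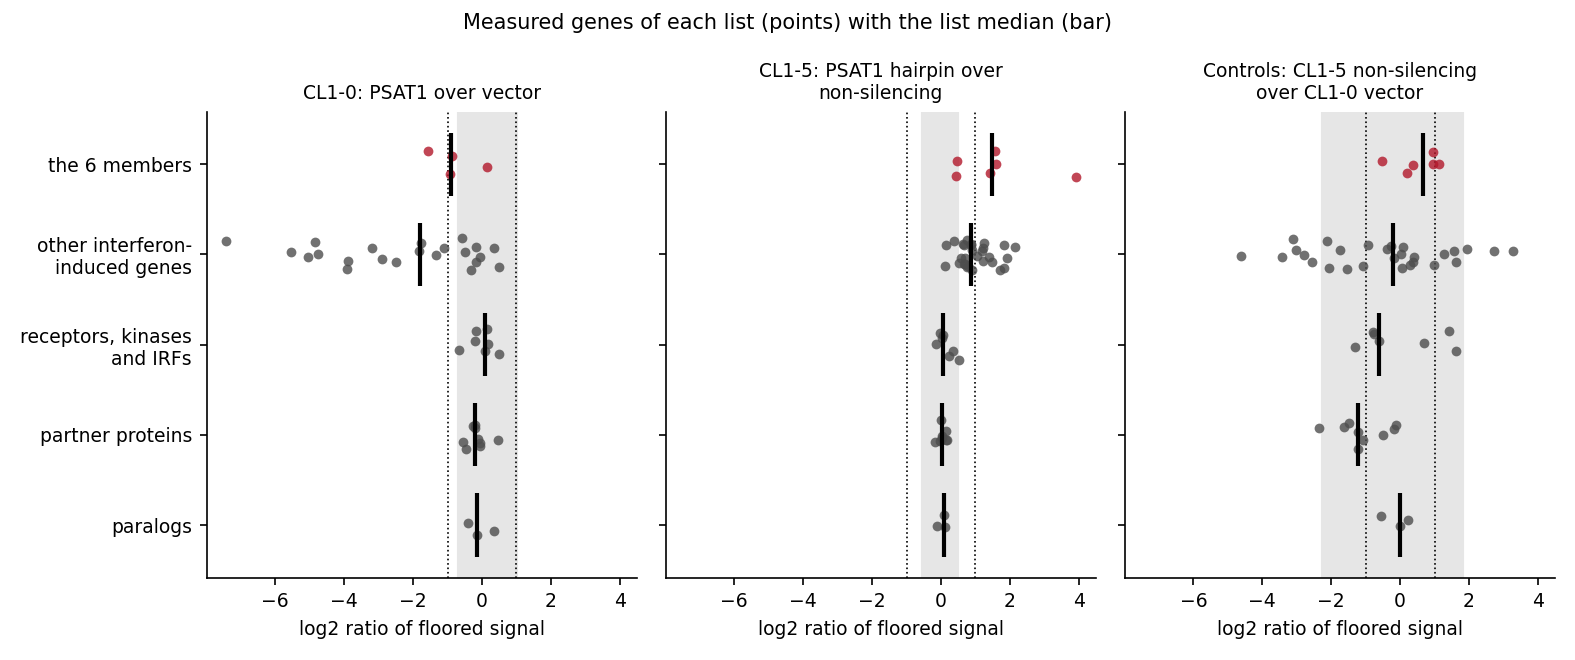
Log2 ratio of floored signal for the measured genes of 5 lists (points, spread vertically at random) in the 3 comparisons, with the median of each list as a bar. The grey band holds the middle 95% of all measured genes. The 6 genes and the other interferon-induced genes lie to the right in CL1-5 with the hairpin, and the signalling genes, partners and paralogs lie within 2-fold in both manipulated lines.

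The genes most like each member over the 4 arrays were found by Euclidean distance between log2 signals centred per gene, among 9134 genes that reached a signal of 213 on their brightest array. With 4 arrays such likeness is weak evidence, and no p-value was attached to it. IFI6 was nearest to IFIT5 (distance 0.65), ISG20 (0.71) and PEG10 (0.89), of which the first 2 are interferon-induced. ISG20 and PEG10 were under the floor on the CL1-0 PSAT1 array (42.2 and 28.7), so their distances depend on the floor. For IFITM1 and IFI27 the distance rests on the CL1-5 arrays, because they and the genes nearest to them were under the floor on both CL1-0 arrays. IFITM1 was nearest to OAS1 (0.37), TCEAL2 (0.51) and LGALS3BP (0.53). IFITM2 and IFITM3 were near each other (0.15) and near SERPINE2, a protease inhibitor (0.17 and 0.10). NABP1 (0.20) followed for IFITM2 and GJA3 (0.18) for IFITM3. IFI27 had no close neighbour: MX1 was 1.54 away, TXNIP 1.72 and TCEAL2 1.75. BST2 lay 0.58 from HLA-B, a class I antigen-presenting molecule, 0.58 from HOXB2 and 0.59 from GPR27. BST2 was itself under the floor on the CL1-5 non-silencing array (38.7), so all its distances depend on the floor.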

How the data were processed

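Total RNA (6 ug per sample, labelled with biotin) was measured on 4 one-colour Affymetrix arrays, 1 per group. The authors deposited linear intensity per probe set, made with MAS5, per the submitters' processing notes; its version, scaling target and detection calls are not given in the sources used here. With 1 array per group no test, p-value or error was computed, and the number of arrays limits the precision. Of 54675 probe sets, 62 were controls. The platform annotation gave 1 gene symbol to 41097, several to 1801 and none to 11777. For 41043 of the first the gene identifier was found in RefSeq and its symbol used, whether or not it differed. Y-linked and X-inactivation genes (59 probe sets) were left out, and each gene was read from the probe set whose floored log2 signal had the highest mean. Intensities were floored at the pooled 50th percentile, log2 transformed and compared between 2 arrays at 2-fold. The members, lists and alternatives were chosen with earlier results of these data known. Named genes were the 6 members, PSAT1, all measured signalling genes, partners and paralogs, the 4 interferon genes with the largest ratio per comparison and the 3 genes nearest to each member. Alternatives were quantile normalization, median centring, floors at the 25th and 65th percentiles, the mean over probe sets, leaving out multi-transcript probe sets, and 1.5-fold. The ratio and call steps were tested on simulated data. Python 3.11.15, numpy 2.4.6 and pandas 2.3.3 were used.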

Additional observations from a re-analysis of the deposited data

How the results depend on the processing

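No paired analysis was possible because each group has 1 array and the labels give no replicate numbers. The 6 genes gave 16 measured ratios in the 3 comparisons, and under 6 alternatives none of 85 recomputed ratios changed sign, while 10 moved across 2-fold, in 6 of the 16. Each gene had 1 probe set, so the 2 probe set rules left a ratio as it was or gave none. Moving the floor cannot reverse a sign. Only the 2 scalings could have changed a sign, so the other values do not bear on it. A count was taken as moved if it changed by over 1.5 times, and a median if it changed by more than the SD between probe sets of one gene, which was 0.30 in CL1-0, 0.18 in CL1-5 and 0.59 between the controls. In CL1-0, the count of 1 member past 2-fold became 2 with median centring and 3 at 1.5-fold. Genes lower over all those measured went from 133 of 13187 to 143 of 12265 with centring and 535 of 13187 at 1.5-fold. In CL1-5, the count of 4 was 3 or 4 under the 7 alternatives, and the median of 1.49 was 0.99 with the 65th percentile floor, and the 12 listed interferon genes became 25 at 1.5-fold. Of all 12821 genes measured there, 51 were higher at 2-fold and 214 at 1.5-fold. Between the control arrays, the count of 1 member was 4 with quantile normalization and with median centring, 3 at 1.5-fold, 2 with a 25th percentile floor, 0 with a 65th percentile floor and 0 without multi-transcript probe sets, which leaves 3 members. Of all genes, 720 of 13720 were higher as deposited, 1306 of 13697 with quantile normalization and 1433 of 13886 with median centring. At 1.5-fold 1169 of 13720 were. The 25th and 65th percentile floors gave 958 of 17444 and 502 of 10804, and leaving out multi-transcript probe sets 514 of 10568. IFI6 in that comparison ran from 0.94 to 1.62. Low signal limits IFI27 and IFITM1 in CL1-0 and BST2 in both lines. The cause of the other shifts was not tested.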

Other observations

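The ISRE core was also read in the promoter windows of all measured genes, a look added after the values of the 6 genes had been seen. In CL1-5 with the hairpin, 40 measured genes had 2 or more matches, of which 9 rose and 1 fell, against 24 rises and 39 falls among 9949 genes with no match (0.241% and 0.392%). IFI6, IFI27, IFITM1 and BST2 were 4 of those 9. With the 6 members, the listed interferon genes and the signalling genes left out, 27 genes with 2 or more matches remained, of which 1 rose, the peptide transporter gene TAP1, and 1 fell, the transcription factor gene TCF4, and their median log2 ratio was 0.00. Among 362 genes with 1 or more matches outside the members and those lists, 5 rose and 2 fell (1.38% and 0.552%). In CL1-0 with PSAT1, 35 genes had 2 or more matches, of which 8 fell and 0 rose, with IFI6 among the 8, against 0.83% falls among genes with no match. Without the members and the listed genes, 24 were left, of which 0 fell and 0 rose. With 1 or more matches, 355 were left, of which 5 fell and 13 rose (1.41% and 3.66%), against 2.46% rises with no match. Between the control arrays, 6 of 40 genes with 2 or more matches were higher in CL1-5 and 11 lower (15.0% and 27.5%), against 4.79% and 25.7% with no match. Leaving out the members and the listed genes, 3 of 27 were higher and 7 lower (11.1% and 25.9%). Of 383 such genes with 1 or more matches, 29 were higher and 98 lower (7.57% and 25.6%). TAP1 and TCF4 were named after their values were seen. The members and lists left out were chosen with earlier results of these data known. Genes that changed could thus be taken out in advance, so the counts that remained support no conclusion about ISRE matches.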
